A study of Mus musculus with 7 samples.

Results

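Endothelial cells line blood and lymph vessels. Their barrier rests on junctions between neighbouring cells, built from the cadherin VE-cadherin, the tight-junction protein claudin-5 and immunoglobulin-family adhesion molecules. Their growth and quiescence are governed by tyrosine kinase receptors for vascular endothelial growth factors (VEGFs) and for angiopoietins (the Tie receptors), and by endoglin, a co-receptor for ligands of the bone morphogenetic protein (BMP) family. Lymph nodes hold several vessel types, among them capillaries, high endothelial venules and lymphatic sinuses.

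Described here are 10 such genes of 21176 in the deposited table, taken by gene name: Pecam1, Cdh5, Cldn5, Esam, Kdr, Flt1, Tek, Tie1, Eng and Vwf. They were measured by RNA sequencing in cells labelled as follicular dendritic cells (FDCs), the antigen-holding stromal cells of B-cell follicles, isolated by flow cytometry out of popliteal nodes. WT mice (n = 4 samples) were compared with Ngfr KO mice (n = 3, KO below), which lack the low-affinity neurotrophin receptor p75. All were non-immunized males of 8 to 12 weeks, and each sample was a pool of nodes from several animals. Strain, design of the allele and sorting gate are not given in the sources used here, nor is any promoter or cell type to which the deletion would be limited.

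Normalised values are reads per gene times 1 factor per sample, with no division by gene length, and a value of 1 equals 230 to 295 reads. Libraries held 17244925 to 18873542 reads in WT and 20741770 to 21538400 in KO, so each KO library was deeper than each WT library. WT replicate 3 had the fewest genes above 0 (17771, against 18624 to 20047 elsewhere). Results for Flt1 and for the Vwf to Cdh5 ratio are given with and without that library. WT replicate 1 differed in another way, with the lowest summed value of the FDC markers described below (1832). Ngfr itself had values of 0.377, 0.677, 1.30 and 1.14 in WT and 0.305, 0.353 and 0.184 in KO, with 46 to 104 reads left in KO. The groups were apart by a narrow gap only: WT replicate 1 held 97 reads and KO replicate 2 held 104. Ngfr failed the limma filter described below. Added to that fit, it had a log2 change of -0.52 (limma adjusted p = 0.0432), and edgeR gave -1.55 (edgeR adjusted p = 0.0574). Its call was lost in 19 of 26 alternative settings. Of 15 FDC markers listed, every one was in the table, and their summed value was 1832 to 5133 in WT and 7983 to 10488 in KO. FDC transcripts were thus abundant in every library, and the endothelial transcripts described here were measured beside them.

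In outline, 8 of the 10 genes were lower in all 3 KO samples than in all 4 WT samples, at 26.0% to 37.8% of the WT mean. These were Pecam1, Cdh5, Cldn5, Esam, Kdr, Tek, Tie1 and Eng. Flt1 was low throughout and its groups overlapped through 1 WT library. Vwf stayed at 94.9% of the WT mean, with overlapping groups. In bulk samples, fewer cells of a type and less RNA per cell cannot be told apart, and that holds for every result below.

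The 10 genes were read from tests across all genes. limma on log2(value + 1) tested the 8326 genes whose value reached 1 in 3 samples or more. At an adjusted p under 0.05 it called 34.2% of these in either direction, 18.3% higher and 15.8% (1318 genes) lower in KO. Of the 10 genes, 8 passed this filter and all 8 of these were called lower. Esam and Eng passed through the WT samples alone, so they had to differ, and the count over genes past the filter supports nothing by itself. Without a filter, limma tested all 10 and called the same 8 lower, against 4.73% of all 21176 genes. edgeR on the recovered reads also tested all 10 and called the same 8 lower, against 6.55% of 16751 genes. Its median log2 change over the 10 genes was -1.58, against -0.02 over all genes it tested. Groups did not overlap, with KO below WT, in 8 of the 10 genes and in 15.5% of the genes edgeR tested.

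**Figure D1:**
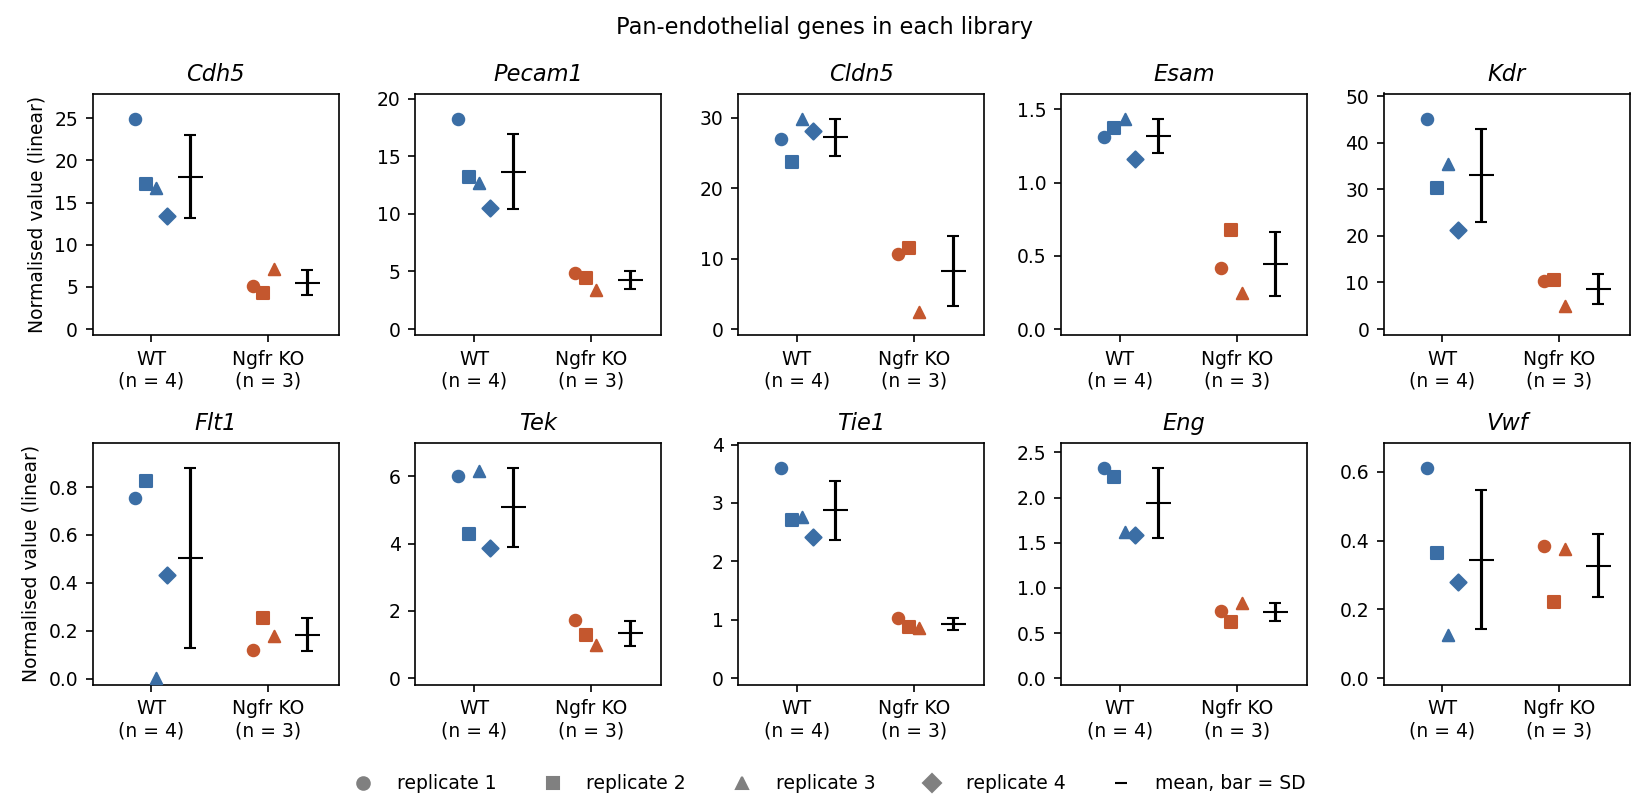
Normalised value (linear axis) of each of the 10 genes in each library, with WT in blue, KO in orange, the symbol giving the replicate and black bars the mean ± SD (n = 4 and n = 3). In 8 panels all KO points lie below all WT points; in Flt1, WT replicate 3 lies at 0.00435, and in Vwf the groups overlap.

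Among the junction genes, Cdh5 encodes VE-cadherin, the adherens-junction cadherin that defines endothelial cells (chromosome 8, 104101625 to 104144511, plus strand, GRCm38). Its normalised values were 24.9, 17.3, 16.8 and 13.4 in WT replicates 1 to 4 and 5.07, 4.29 and 7.11 in KO replicates 1 to 3. WT replicate 1 was highest of all, and the highest KO library, replicate 3, stayed below the lowest WT library, replicate 4. Means ± SD were 18.1 ± 4.88 for the 4 WT and 5.49 ± 1.46 for the 3 KO libraries. limma gave a log2 change of -1.55 (SE 0.22, adjusted p = 6.76e-04) and edgeR one of -1.66 (SE 0.25, adjusted p = 0.00492).

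Pecam1 encodes CD31, an immunoglobulin-family adhesion molecule of endothelial junctions that platelets and some leukocytes also carry (chromosome 11, 106654217 to 106750628, minus strand). Its values were 18.3, 13.2, 12.7 and 10.5 in WT and 4.88, 4.46 and 3.43 in KO. WT replicate 1 was highest and WT replicate 4 lowest of its group, the same order as in Cdh5. The log2 change was -1.46 (limma, SE 0.20 and adjusted p = 5.09e-04) and, with edgeR, -1.60 (SE 0.24, adjusted p = 0.00475).

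Cldn5 encodes claudin-5, the main tight-junction claudin of endothelium (chromosome 16, 18776847 to 18778262, plus strand). WT values were close together at 27.1, 23.7, 29.9 and 28.2, whereas KO values were 10.6, 11.5 and 2.48. KO replicate 3 thus lay far below the other KO libraries, and all 3 lay below WT. limma gave a log2 change of -1.82 (SE 0.36, adjusted p = 0.00315), which was -1.22 (SE 0.16, adjusted p = 0.00213) without KO replicate 3. edgeR gave -1.63 (SE 0.44, adjusted p = 0.0343). In 5 of the 7 edgeR fits that each left out 1 library, the adjusted p of Cldn5 rose to between 0.0526 and 0.0719: without WT replicate 1, 3 or 4, or without KO replicate 1 or 2.

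Esam encodes an endothelial cell-selective adhesion molecule of tight junctions (chromosome 9, 37528078 to 37538319, plus strand). It was expressed at a low level, with values of 1.31, 1.37, 1.43 and 1.16 in WT and 0.414, 0.675 and 0.244 in KO. These values rest on 305 to 366 reads in WT and 61 to 199 in KO, and the groups did not overlap. Because the pseudocount of 1 is large beside such values, limma gave -0.69 (SE 0.15, adjusted p = 0.00453) while edgeR gave -1.48 (SE 0.37, adjusted p = 0.0259). edgeR's adjusted p was 0.0524 without WT replicate 2 and 0.0926 without KO replicate 1.

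Of the receptors for VEGF, Kdr encodes VEGFR2, the main signalling receptor for VEGF-A in endothelium, and Flt1 encodes VEGFR1, which binds the same ligand and, as a soluble form, acts as a decoy. Both lie on the minus strand of chromosome 5, Kdr from 75932827 to 75978458 and Flt1 from 147561604 to 147726011. The 250 bases before the start of each are shown because the receptors bind a shared ligand and their genes were measured at very different levels per length (RefSeq, GRCm38.p6, minus strand, chr5:75978456-75978705 for Kdr and chr5:147726012-147726261 for Flt1). Capitals mark GGAA, the core letters of ETS-family binding motifs, or its complement TTCC, and in Flt1 also TATAAA.
Kdr: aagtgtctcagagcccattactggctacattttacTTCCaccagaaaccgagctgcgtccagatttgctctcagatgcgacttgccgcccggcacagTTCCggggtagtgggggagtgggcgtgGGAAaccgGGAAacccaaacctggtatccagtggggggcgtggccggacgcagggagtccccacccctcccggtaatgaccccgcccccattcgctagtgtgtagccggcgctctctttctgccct
Flt1: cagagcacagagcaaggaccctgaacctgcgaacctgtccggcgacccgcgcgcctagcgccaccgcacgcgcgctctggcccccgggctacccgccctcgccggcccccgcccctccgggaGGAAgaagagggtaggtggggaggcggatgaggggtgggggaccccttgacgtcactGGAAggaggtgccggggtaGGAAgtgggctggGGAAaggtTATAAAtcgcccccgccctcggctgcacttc
Each window holds 4 matches to GGAA on either strand, and at least 4 occur in 33.4% of all 32851 windows of this length. TATAAA begins 31 bases before the start of Flt1, is not among the letters of the Kdr window, and occurs on either strand in 12.4% of all windows. The Flt1 window has a GC content of 70.4% and that of Kdr 61.6%, against a median of 52.4% over all windows. These matches describe letters only.

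Kdr values were 45.1, 30.2, 35.3 and 21.2 in WT, against 10.3, 10.6 and 4.86 in KO. Even the lowest WT library, replicate 4, was above every KO library. The mean fell from 32.98 ± 9.99 to 8.57 ± 3.22 (means ± SD of 4 and 3 libraries), a log2 change of -1.84 (limma, SE 0.28 and adjusted p = 9.63e-04) that edgeR gave as -1.86 (SE 0.34, adjusted p = 0.00893).

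Flt1 was covered by 194, 221, 1 and 113 reads in WT and by 33, 75 and 44 reads in KO. Normalised values were 0.755, 0.827, 0.00435 and 0.431 in WT and 0.120, 0.254 and 0.176 in KO, so the gene failed the filter. The single read of WT replicate 3 has an exact Poisson 95% interval of 0.0253 to 5.57 reads, which covers counting error only and lies far under the 113 reads or more of the other WT libraries. With all libraries, Flt1 was not called: limma with the gene added gave -0.31 (SE 0.20, adjusted p = 0.233) and edgeR -1.38 (SE 1.01, adjusted p = 0.392). Without WT replicate 3 the groups did not overlap, and the change was -0.49 with limma (SE 0.14, adjusted p = 0.0208) and -1.79 with edgeR (SE 0.48, adjusted p = 0.0358). The call on Flt1 thus rested on 1 WT library, the one with the fewest genes above 0.

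Set against Kdr in the same library, the Flt1 value was 1.67%, 2.74%, 0.0123% and 2.03% of the Kdr value in WT and 1.17%, 2.40% and 3.62% in KO. The log2 ratio differed by 1.90 between the genotype means, with WT between -12.99 and -5.19 and KO between -6.42 and -4.79. That difference was within the spread between samples (exact two-sided permutation test over 35 splits, p = 0.686, adjusted p = 0.686 over the 2 receptor ratios tested). Without WT replicate 3 the difference was 0.04.

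Tek (Tie2) is the receptor for angiopoietins, and Tie1 is an orphan receptor that pairs with it. Both lie on chromosome 4, Tek from 94739289 to 94874976 on the plus strand and Tie1 from 118471191 to 118490061 on the minus strand. Their start windows are shown as those of the other receptor pair, both of whose genes were called lower (RefSeq, GRCm38.p6, chr4:94739039-94739288 on the plus strand for Tek and chr4:118489850-118490099 on the minus strand for Tie1). The RefSeq start of Tie1 differs from the GENCODE gene end given above, so that 212 of its 250 bases lie inside the GENCODE gene (3 for Kdr). GGAA and TTCC are again in capitals.
Tek: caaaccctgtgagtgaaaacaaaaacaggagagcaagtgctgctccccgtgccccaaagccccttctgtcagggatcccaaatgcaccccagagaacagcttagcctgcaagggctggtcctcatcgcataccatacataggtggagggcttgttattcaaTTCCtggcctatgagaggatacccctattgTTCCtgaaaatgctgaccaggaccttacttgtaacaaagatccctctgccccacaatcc
Tie1: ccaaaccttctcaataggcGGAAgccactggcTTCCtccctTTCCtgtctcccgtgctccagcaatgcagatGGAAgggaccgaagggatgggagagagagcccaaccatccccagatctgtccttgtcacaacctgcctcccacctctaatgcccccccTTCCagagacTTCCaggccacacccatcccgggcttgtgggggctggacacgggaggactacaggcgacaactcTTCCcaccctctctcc
Tie1 has 7 matches to GGAA on either strand, a number reached by 3.82% of all windows, and Tek has 2, reached by 76.8%. Windows were also found for Eng, with 3 matches, and Cldn5, with 0, so 6 of the 10 genes had one. GGAA on either strand is common, occurring in 93.5% of all windows of this length.

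Tek values were 5.99, 4.28, 6.15 and 3.86 in WT and 1.72, 1.29 and 0.997 in KO. Groups were well apart, and KO replicate 3 was lowest, as in Pecam1, Kdr, Tie1, Cldn5 and Esam. The log2 change was -1.37 (limma, SE 0.19 and adjusted p = 5.28e-04), or -1.85 with edgeR (SE 0.27, adjusted p = 0.00475). Tie1 values were 3.60, 2.71, 2.76 and 2.42 in WT and 1.04, 0.885 and 0.861 in KO. The 3 KO libraries were nearly alike in Tie1. The log2 change was -0.999 (limma, SE 0.15 and adjusted p = 8.74e-04), or -1.56 with edgeR (SE 0.23, adjusted p = 0.00463).

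The Tek to Tie1 ratio was 1.66, 1.58, 2.23 and 1.59 in WT and 1.66, 1.46 and 1.16 in KO. The means of the log2 ratio were 0.80 ± 0.24 in WT (SD, n = 4) and 0.50 ± 0.26 in KO (SD, n = 3), and the groups overlapped. The difference of -0.31 was within the spread between samples (exact two-sided permutation test, p = 0.2, adjusted p = 0.4 over the 2 receptor ratios), in a design whose smallest possible p is 0.0286.

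Eng encodes endoglin, the BMP co-receptor that endothelial cells carry and some stromal cells and macrophages share (chromosome 2, 32646595 to 32682669, plus strand). Its values were 2.32, 2.22, 1.62 and 1.58 in WT and 0.740, 0.628 and 0.829 in KO. Every KO library lay below every WT library, with 373 to 597 reads in WT and 185 to 207 in KO. The log2 change was -0.75 (limma, SE 0.15 and adjusted p = 0.00335), or -1.34 with edgeR (SE 0.25, adjusted p = 0.00913). Exons of Eng overlap exons of Fpgs on the opposite strand, and since strand-aware counting is not stated, reads in that overlap are uncertain. No other member had exons overlapping another annotated gene.

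Vwf encodes von Willebrand factor, the platelet-binding glycoprotein that endothelial cells store in Weibel-Palade bodies and megakaryocytes in alpha granules (chromosome 6, 125546774 to 125686679, plus strand). The WT libraries held 157, 97, 29 and 73 Vwf reads and the KO libraries 106, 65 and 94. Values were 0.611, 0.363, 0.126 and 0.278 in WT and 0.384, 0.220 and 0.376 in KO, so that the KO libraries lay inside the WT range. Vwf failed the filter. Added to the limma fit it had a log2 change of -0.01 (SE 0.15, 95% interval -0.34 to 0.32, adjusted p = 0.968), and edgeR gave -0.01 (SE 0.56, adjusted p = 0.991). The sign of this change flipped under another pseudocount, another scaling and the loss of single libraries. With so few reads the error of this estimate was wide, and Vwf was not shown to be unchanged.

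**Figure D2:**
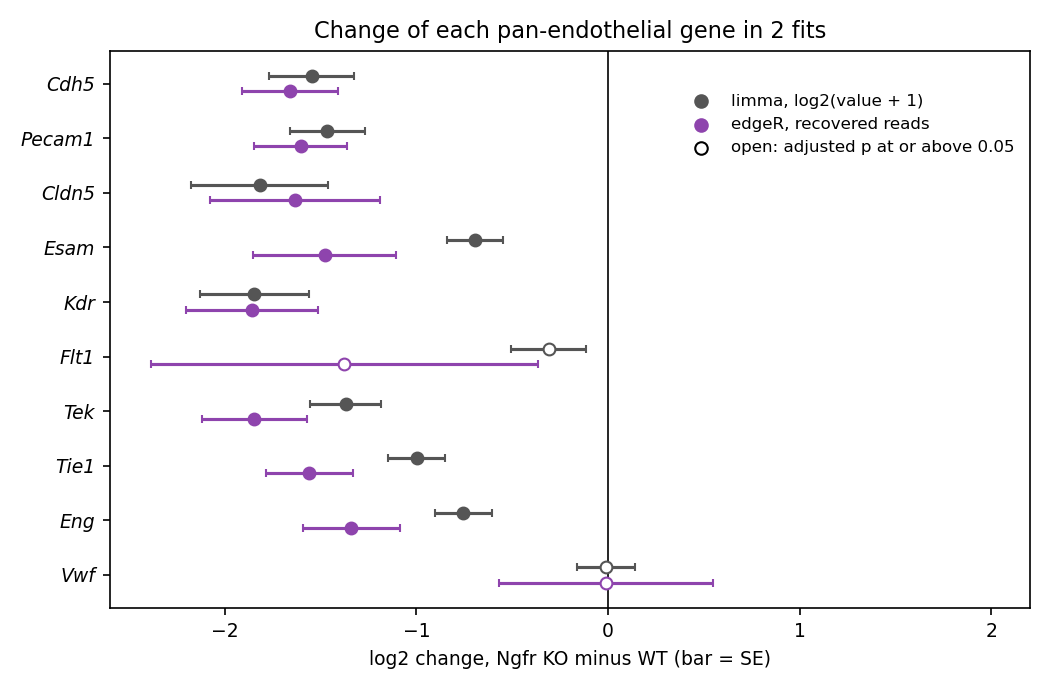
log2 change of each gene, KO minus WT, in limma on log2(value + 1) (grey) and edgeR on recovered reads (purple), with bars for the SE and open symbols for an adjusted p of at least 0.05. Filled symbols lie between -1.84 and -0.69 for limma and between -1.86 and -1.34 for edgeR, while Flt1 and Vwf are open in both fits.

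On edgeR's scale, which has no large pseudocount, the 8 called genes were 2.53-fold (Eng) to 3.62-fold (Kdr) lower in KO. To compare members within a library, each was divided by Cdh5. Of the 9 ratios, 8 overlapped in range between genotypes. Mean differences were -0.29 (Cldn5) to 0.32 (Eng) on the log2 scale in 7 of them and 1.64 in Flt1. A small mean difference did not mean that the ratio was kept. For Pecam1 it was -0.054, 0.054 and -1.05 in KO replicates 1 to 3, against -0.45 to -0.35 in WT. For Tie1 it was -2.29, -2.28 and -3.05, against -2.79 to -2.47. In both genes the KO libraries lay on either side of the WT range, and none lay inside it. The Vwf to Cdh5 log2 ratio was -7.06 to -5.35 in WT and -4.28 to -3.72 in KO, without overlap. Its difference of 1.81 had an exact two-sided permutation p of 0.0286, the smallest possible, and 0.257 after adjustment over the 9 ratios, a family chosen after the values were seen. The difference was 1.42 without WT replicate 3 (exact permutation p = 0.1, the smallest that 6 libraries allow).

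**Figure D3:**
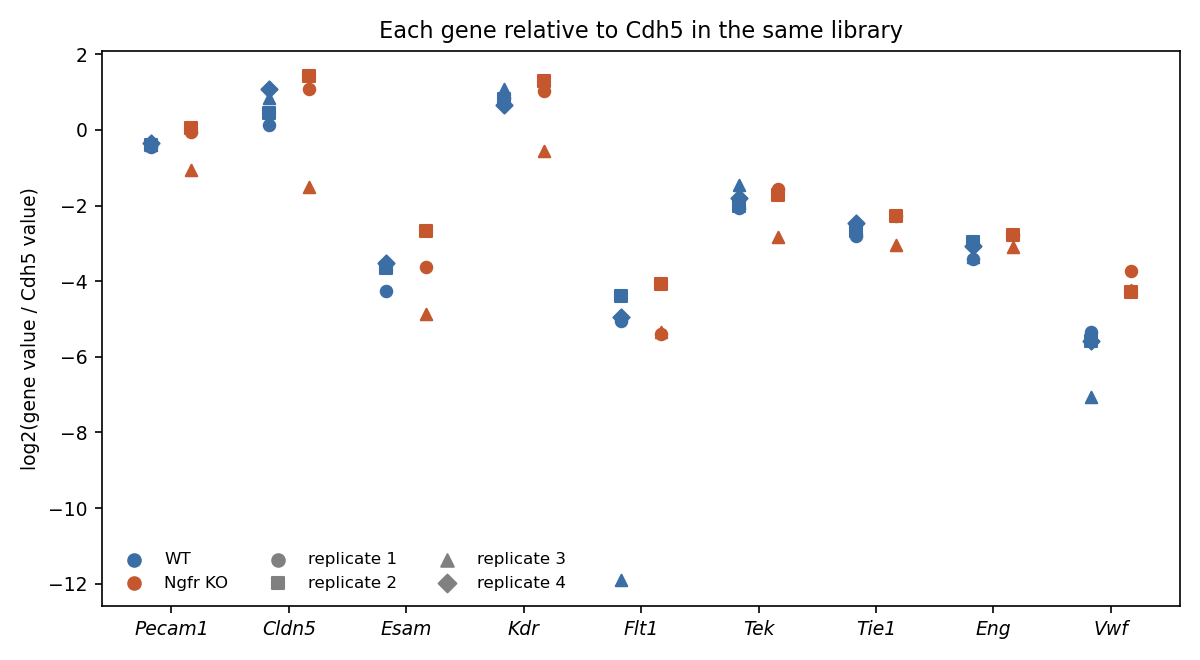
log2 of each gene's value over that of Cdh5 in the same library, WT in blue and KO in orange, the symbol giving the replicate. Ranges overlap for 8 genes, though in Pecam1 and Tie1 the KO points lie on either side of the WT points. For Vwf the KO points (-4.28 to -3.72) lie above all WT points, and WT replicate 3 is far below the rest in Flt1.

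Libraries of one genotype also differed from each other. WT replicate 1 was the highest WT library in 6 of the 10 genes (Pecam1, Cdh5, Kdr, Tie1, Vwf and Eng), and WT replicate 4 the lowest in 7. KO replicate 3 was the lowest of its group in 6 genes and the highest in Cdh5 and Eng, while KO replicates 1 and 2 were each highest in 4. Summed FDC markers were lowest in WT replicate 1 (1832), highest of WT in replicate 4 (5133) and highest of all in KO replicate 3 (10488); their part in these differences was not tested. In KO replicate 3, Cldn5, Kdr, Pecam1, Tek, Tie1 and Esam were lower relative to Cdh5 than in any other library. Cdh5 itself was at its KO maximum (7.11) in that library.

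Levels of different genes can be compared only per length, here as value per kb of annotated exon. In WT, Cldn5 was highest at 19.2 ± 1.83 per kb (SD, n = 4), followed by Cdh5 at 4.30 ± 1.16, Kdr at 3.65 ± 1.11, Pecam1 at 2.19 ± 0.526 and Tek at 1.08 ± 0.249. Tie1, Eng and Esam followed at 0.584 ± 0.103, 0.479 ± 0.0964 and 0.460 ± 0.0404. Flt1, at 0.0373 ± 0.0278, and Vwf, at 0.0215 ± 0.0126, came last. Ranges overlapped between the neighbours Cdh5 and Kdr, Kdr and Pecam1, Tie1 and Eng, Eng and Esam, and Flt1 and Vwf, and were apart at the other steps. In KO the order of the first 8 genes was the same, with Cldn5 at 5.81 ± 3.53 per kb (SD, n = 3) and Esam at 0.155 ± 0.0757. The last pair changed places, Vwf at 0.0204 ± 0.00575 and Flt1 at 0.0136 ± 0.00501, with overlapping ranges.

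**Figure D4:**
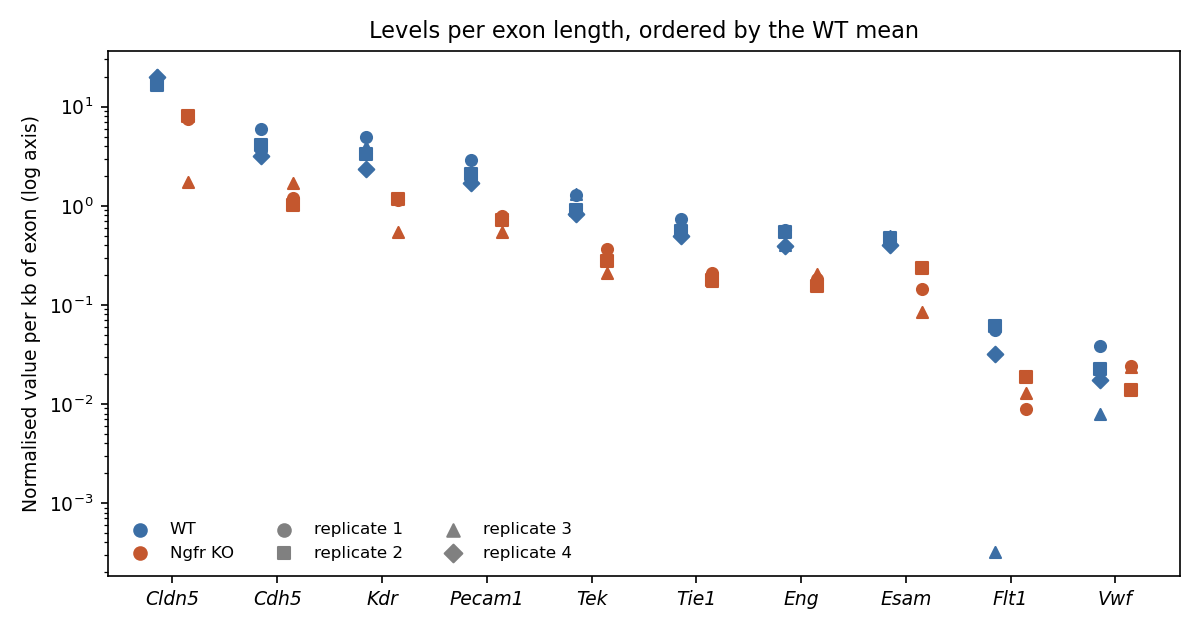
Normalised value per kb of annotated exon (log axis) for each gene and library, ordered by the WT mean, WT in blue and KO in orange. Cldn5 is highest and Flt1 and Vwf lowest in both genotypes, and the first 8 genes keep their order.

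Other genes of the same systems were read from lists, whose counts stand against 15.8% of all genes tested called lower and 18.3% called higher. Genes that passed the filter through WT alone had to differ, and their number is given with each count. Of 14 tested genes of the junction list, which anchor or regulate cell contacts, 9 were called lower (1 through WT alone) and 0 higher, with a median limma log2 change of -0.58 against 0.02 over all genes tested. Ptprb, the endothelial phosphatase that acts on VE-cadherin and Tie2, fell from 10.1 ± 3.55 to 1.65 ± 0.652, a log2 change of -2.04 (limma, SE 0.26 and adjusted p = 4.03e-04). The scaffold genes Tjp1 (ZO-1) and Afdn (afadin) had log2 changes of -1.55 and -1.12 (limma adjusted p = 4.75e-04 and 6.36e-04). Both scaffolds are also present in epithelial and other cells.

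Of 8 tested genes of the VEGF list, 7 were called lower (3 through WT alone, against 15.8% of all genes) and 0 higher, with a median of -0.88. They comprised ligand, receptor, co-receptor and effector genes. The receptor gene was Flt4, with a log2 change of -1.18 (limma adjusted p = 0.00166). The ligand genes Vegfa and Vegfb had log2 changes of -0.70 and -0.62 (limma adjusted p = 0.00712 and 0.00852), Vegfb past the filter through WT alone. The ligand genes Vegfc and Pgf failed the filter and went the other way. Their edgeR log2 changes were 1.67 and 1.28, and neither was called (edgeR adjusted p = 0.118 and 0.233). Nrp2, a co-receptor, fell from 7.04 ± 2.16 to 2.32 ± 0.267 (-1.24 on the log2 scale, limma adjusted p = 0.00137). Nos3, the endothelial nitric oxide synthase downstream of Kdr, had a log2 change of -1.02 and Plcg1, the phospholipase that Kdr recruits, one of -0.97 (limma adjusted p = 0.00145 and 0.00151), both past the filter through WT samples alone. The other co-receptor, Nrp1, was at 1.05 to 1.89 in KO and 0.478 to 0.996 in WT. It was not called (0.40 on the log2 scale, limma adjusted p = 0.0783). Nrp1 passed the filter through the KO samples alone, so its groups had to lie apart, and that separation supports nothing by itself.

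In the angiopoietin and Tie list, 3 of 4 tested genes were called lower (1 through WT alone, against 15.8% of all genes) and 0 higher. The agonist ligand Angpt1 lay between 0.892 and 2.502 in WT and between 0.416 and 0.499 in KO (-0.80 on the log2 scale, limma adjusted p = 0.0114). It passed the filter through WT alone and was not called in 3 of 22 alternatives. Foxo1, a transcription factor restrained by Tie2 signalling, fell by 1.28 on the log2 scale (limma adjusted p = 3.30e-04). Angpt2, the context-dependent ligand stored with Vwf, ranged from 1.01 to 3.00 in WT and from 0.1001 to 4.47 in KO and was not called (-0.09 on the log2 scale, limma adjusted p = 0.878). Its sign was positive with edgeR.

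Of 9 tested genes of the endoglin and BMP list, 4 were called lower (against 15.8% of all genes) and 1 higher (against 18.3%), with a median of -0.48. Tgfbr2, the type II receptor for TGF-beta, fell from 14.5 ± 2.49 to 4.30 ± 0.772 (-1.55 on the log2 scale, limma adjusted p = 3.20e-04). Smad4, the shared signal mediator, had a log2 change of -0.98 (limma adjusted p = 0.00343), and Smad1 one of -0.63 (limma adjusted p = 0.0170, edgeR adjusted p = 0.0628). Id1, a transcriptional target of BMP signals, rose from 3.62 ± 1.45 to 9.32 ± 4.15 (1.14 on the log2 scale, limma adjusted p = 0.00926). Acvrl1, the ALK1 receptor that endoglin assists, was not called (-0.24 on the log2 scale, limma adjusted p = 0.193); it was named after its values were seen.

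Among 4 tested genes of the Vwf storage list, F8 (coagulation factor VIII, which von Willebrand factor carries in plasma) fell from 66.5 ± 32.8 to 17.7 ± 11.4 (-1.93 on the log2 scale, limma adjusted p = 0.00932). The edgeR adjusted p of F8 was 0.0486, and its call was lost in 7 of 26 alternatives, 6 of them edgeR fits without 1 library. Mmrn2, an endothelial matrix glycoprotein, had a log2 change of -1.65 (limma adjusted p = 3.20e-04). Cd63, a membrane protein of Weibel-Palade bodies and of lysosomes in most cells, rose from 204 ± 42.4 to 424 ± 97.6 (1.06 on the log2 scale, limma adjusted p = 0.0124).

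Of 15 tested transcription factors of endothelial identity, 13 were called lower (4 through WT alone: Sox7, Tal1, Lmo2 and Gata2; 15.8% of all genes) and 1 higher, with a median of -1.03. Erg, an ETS factor known to act on many endothelial junction genes, fell from 5.403 ± 0.900 to 1.09 ± 0.171 (-1.61 on the log2 scale, limma adjusted p = 1.39e-04). The Kruppel-like factors Klf2 and Klf4 fell (log2 changes -2.81 and -2.37), and Foxf1 rose by 0.68 (limma adjusted p = 4.34e-05, 1.16e-04 and 0.00490). Of 16 tested genes on the list of other pan-endothelial genes, 10 were called lower (4 through WT alone, against 15.8% of all genes) and 0 higher, with a median of -1.02. Emcn (endomucin) had a log2 change of -1.69, Rasip1, a regulator of vascular lumens, one of -1.35 and Robo4 one of -1.32 (limma adjusted p = 0.00157, 7.20e-04 and 4.95e-04). Emcn and Robo4, like Cd93 and Podxl, passed the filter through WT samples alone.

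By profile over the 7 samples, genes near to the mean of the 8 tested members included Gng11, Snrk, Unc45b, Arap3 and Msrb3. Their root mean square distance from that mean was 0.0561, 0.0717, 0.0971, 0.112 and 0.125 log2 units after centring each gene. The members themselves lay 0.113 (Pecam1) to 0.526 (Cldn5) from it. Gng11, a G-protein gamma subunit, fell from 23.6 ± 3.17 to 8.73 ± 1.46. These likenesses are a description of 7 libraries in 2 groups.

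For cell-type markers, the capillary list had all 10 genes in the table. Its summed value was 147 to 241 in WT and 80.0 to 90.2 in KO. In 5 of its genes every KO sample lay below every WT sample, against 18.3% of all genes past the filter. Of these 5, Gpihbp1 and Cd300lg passed the filter through WT alone and had to differ. Tcf15, with at most 22 reads in a library, failed it. Fabp5, a fatty-acid binding protein, went the other way, at 13.6 to 41.2 in WT and 43.1 to 75.3 in KO. It was not called (limma adjusted p = 0.0949, edgeR adjusted p = 0.147). In the lymphatic list, 5 of 9 genes had every KO sample below every WT sample, against 18.3% of all genes past the filter. Among them, Reln and Fgl2 passed the filter through WT alone and had to differ. Lyve1, Ccl21a and Pdpn overlapped between genotypes. Prox1, the regulator of lymphatic identity and also 1 of the 5, fell from 23.7 ± 6.68 to 6.32 ± 0.657. The sum of that list was higher in KO, 200.01 to 219.98 against 127 to 194, and included Madcam1, also an FDC marker, which rose from 25.2 ± 6.78 to 163 ± 25.5; without it the sum was 98.4 to 179 in WT and 27.2 to 65.5 in KO. The arterial sum was 22.7 to 38.3 in WT and 65.7 to 96.9 in KO. Without Gja4 that sum was 12.9 to 18.6 in WT and 7.20 to 10.7 in KO. Of 5 tested genes of the arterial list, limma called 3 lower, against 15.8% of all genes tested, and 2 higher, against 18.3%. Unc5b, called lower, passed the filter through WT alone. Sums of the high endothelial venule list overlapped, at 280.1 to 419 and 236 to 738, and 0 of its 4 tested genes were called by limma. Summed fibroblastic reticular markers were 77.2 to 153 in WT and 243 to 350.0 in KO. Of 7 tested genes of that list limma called 4 higher, and of 15 tested FDC markers 13, against 18.3% of all genes tested. No listed marker in the table was at 3 reads or fewer in every sample. Sums of B-cell, T-cell, myeloid, pericyte and platelet markers overlapped between genotypes. In the platelet list, the defining marker Pf4 was at 1.79 to 3.31 in WT and 0.726 to 4.45 in KO, while Itga2b was called lower (8.502 ± 2.21 and 3.61 ± 1.06, limma adjusted p = 0.00405). With reads thinned to the smallest library total, 17244925, the same 8 members were called lower. The part that these cell types or depth had in the members' changes was not tested.

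**Figure D5:**
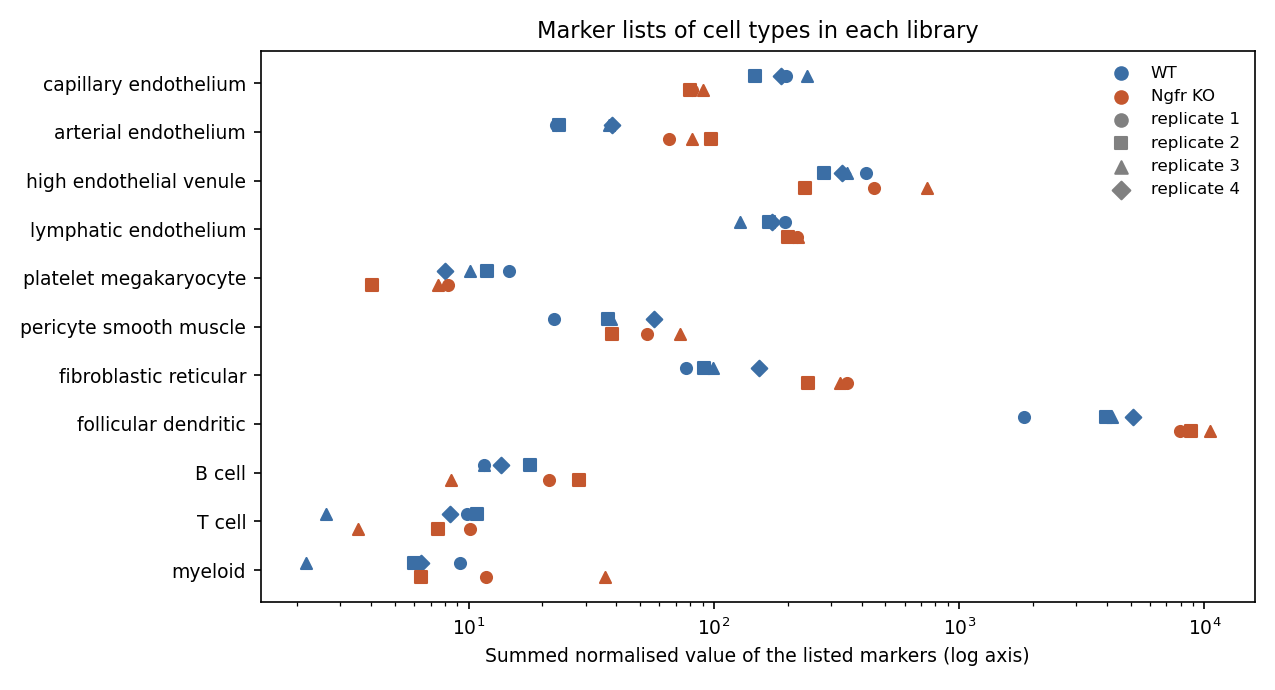
Summed normalised value of each cell-type marker list (log axis) in each library, WT in blue and KO in orange, the symbol giving the replicate. Capillary sums are lower and FDC, fibroblastic reticular, arterial and lymphatic sums higher in all KO libraries. Without Gja4 the arterial sums, and without Madcam1 the lymphatic sums, were lower in all KO libraries (not drawn). B-cell, T-cell, myeloid, pericyte, platelet and high endothelial venule sums overlap.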

How the data were processed

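Normalised signal per gene in 7 samples was deposited by the authors as 1 table named TMM (trimmed mean of M values). The submitters' processing notes list bcl2fastq 2.20.0.422 and build mm10; aligner, counter and annotation are not given in the sources used here. SMART-Seq v4 cDNA and Nextera XT libraries were used, per the labels' protocols. In each sample 100% of values were whole multiples of 1 step within 0.05 reads, so reads were recovered by division; intervals cover counting error only. Genes under 3 reads over all samples are not in the table. Coordinates, exon lengths and overlaps come from GENCODE M21 (GRCm38), which held 21118 of 21176 identifiers; start windows come from RefSeq (GRCm38.p6).

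The main test was limma 3.58.1 (R 4.3.3; moderated variances with a mean trend) on log2(value + 1) with genotype as the only term, with Benjamini-Hochberg adjustment over all genes; edgeR 4.0.16 (quasi-likelihood, filterByExpr, TMM) ran on recovered reads. The values of the 10 genes come from the same limma fit with Flt1, Vwf and Ngfr added (8329 genes). For edgeR, the SE was derived as the absolute log2 change divided by the square root of the quasi-likelihood F statistic. All fold changes named limma are on the log2(value + 1) scale, which understates low genes. Beyond the members, the text names, per list, the genes with the largest change in each direction and up to 2 more with the lowest p, and the 6 nearest profiles, 1 of which is not reported here; others were chosen after their values were seen. Of 192 listed genes, 182 were in the table. Members and lists were chosen with earlier results of these data known. The labels call the samples independent but do not list the animals in each pool; p-values measure the spread between these samples. Both fits were tested on simulated data.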

Additional observations from a re-analysis of the deposited data

Results flagged for a closer look

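Of 13 results checked for a WT sample far from the other 3, 2 stood out, where chance gives 0.65. Both concern WT replicate 3. Its Flt1 to Kdr log2 ratio was -12.99, against -5.90 to -5.19 in the other WT libraries, so the gap took 0.909 of the range. Its Tek to Tie1 log2 ratio was 1.15, against 0.66 to 0.73, a gap of 0.847 of the range. The first rests on 1 Flt1 read; the second on 1416 Tek and 636 Tie1 reads.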

How the results depend on the processing

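The count of 2844 called genes was 535 with the stricter filter (10 or more in 3 libraries) and 4881 with array weights. It ranged from 1614 to 3006 over the 7 limma fits without 1 replicate and from 996 to 2738 over the 7 such edgeR fits, which were added after seeing the data. The full edgeR fit called 2551. The number of members called lower, 8, was 4 with the stricter filter, which tests only 4 of them, 8 in every limma fit without 1 replicate and 6 to 8 in the edgeR ones (Flt1 among them, and Cldn5 not, without WT replicate 3); it was 8 under all other alternatives. Pecam1, Cdh5 and Kdr were called lower in all 18 limma and 8 edgeR alternatives, Tek, Tie1 and Eng in all 17 limma ones that tested them and all 8 edgeR ones, Cldn5 in 18 and 3, and Esam in 17 and 6. Flt1, added where the filter left it out, was called in 3: both fits without WT replicate 3, and array weights. Vwf had a log2 change of 0.035 with a pseudocount of 0.1, 0.040 with quantile normalization, 0.0084 with median ratio scaling, 0.00432 with thinned reads and 0.33 with the trend in GC content and length removed (limma adjusted p = 0.0828); without 1 replicate it ranged from -0.090 to 0.082 with limma and from -0.29 to 0.40 with edgeR. Angpt2 gave 0.023 with a pseudocount of 5 and 0.30 with edgeR, and -0.59 to 0.57 (limma) and -0.60 to 0.88 (edgeR) without 1 replicate. The cause was not tested. Without 1 replicate, the difference in the Flt1 to Kdr ratio ranged from 0.04 to 2.64 and that in the Tek to Tie1 ratio from -0.43 to -0.17. With 4 WT and 2 KO libraries an exact p cannot fall under 0.0667. Replicate numbers are shared across genotypes, and the labels do not say whether they mark paired samples. Same-numbered deviations correlated at 0.298, -0.0593 and -0.0108, and only the pair numbered 1 matched best. These few correlations cannot settle whether same-numbered samples shared a batch. With the replicate number as a block, 2717 genes and the same 8 members were called. With no filter on low values, F8, Cd63, Id1 and Angpt1 were not called and the 8 members were. The Ngfr call was lost in 19 of 26 alternatives (adjusted p up to 0.148), that of F8 in 7 and that of Smad1 in 9. Flt1 and Vwf had at most 221 and 157 reads in a library.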

Other observations

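The arterial marker list split by direction. Bmx, a kinase of arterial endothelium, had means ± SD of 4.21 ± 0.866 over 4 WT and 0.839 ± 0.462 over 3 Ngfr KO samples. Efnb2, a ligand that marks arteries, fell from 6.19 ± 1.44 to 1.70 ± 0.835, and Unc5b from 2.75 ± 0.790 to 0.773 ± 0.0951. All 3 were called by limma (adjusted p = 4.26e-04, 9.60e-04 and 0.00145), Unc5b past the filter through WT alone. Gja4, which encodes the gap-junction protein connexin 37, went the other way, at 4.11 to 20.9 across WT libraries and 57.3 to 89.7 across KO libraries (log2 change 2.51, limma adjusted p = 0.00134). Dll4, a Notch ligand of arterial endothelium, rose from 3.25 ± 0.805 to 5.24 ± 1.23 (log2 change 0.56, limma adjusted p = 0.0381; edgeR adjusted p = 0.0523). These 5 genes were named after their values were seen.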
